A study of Mus musculus with 11 samples.

Results

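The genes described here are 9 genes of the central myelin sheath, Mbp, Mobp, Mag, Mog, Cnp, Mal, Cldn11, Ugt8a and Opalin. They were chosen by symbol, not by a measured value, though with earlier results of these data known. All 9 of 9 were found among the 31053 genes of the count matrices. Oligodendrocytes wrap axons with a membrane that is compacted into myelin, and each gene of the set makes a part of that membrane or a lipid in it. Mbp and Mobp code for basic proteins of the compacted layers, Mag and Mog for surface proteins of the inner and outer layers, and Cnp for an enzyme of the uncompacted cytoplasm. Mal codes for a membrane proteolipid, Cldn11 for the tight junction claudin between the wraps, Ugt8a for the enzyme that makes galactosylceramide, and Opalin for a transmembrane protein of oligodendrocytes. Precursor cells switch most of these genes on as they differentiate, so the genes mark mature oligodendrocytes in cortex.

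Nuclei were isolated from frozen cortex of 11 mice labelled female (the study's methods give male mice for RNA-seq), and their 3′ RNA ends were counted with unique molecular identifiers (UMIs), 1 library per mouse. NonTg mice (n = 4, 9.8 to 10.85 months old) were ikbkb+/+ without a tau transgene, and P301S mice (n = 3, 9.15 to 10.75 months) were ikbkb+/+ with the P301S transgene, a mutant human tau expressed in neurons from a prion promoter. Knockout P301S mice (n = 2, 8.39 to 9.15 months) had the same transgene and lacked Ikbkb, which codes for the NF-κB activating kinase IKKβ, in cells with Cx3cr1-driven inducible Cre, which in brain are chiefly microglia. Active IKKβ P301S mice (n = 2, 9.8 to 10.85 months) had the transgene and made a constitutively active IKKβ from the Rosa26 locus in the same cells. By the study's methods tamoxifen was given to controls as well, and the controls carried floxed alleles without Cre, so the knockout and active IKKβ mice also differ from their controls by the Cre allele at Cx3cr1. The mice came from 2 breeding lines, one with floxed Ikbkb (6 mice) and one with the floxed active IKKβ (5 mice). NonTg and P301S mice came from both lines, all knockout P301S mice came from the floxed Ikbkb line and all active IKKβ P301S mice from the other, so line can be adjusted for in those mice only by a term shared with the NonTg and P301S mice.

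Of 114118 barcodes (7500 to 12315 per library, from 72007219 to 93205362 UMIs), 103194 nuclei were kept. Nuclei were clustered without the 9 genes, so that no cell type was named from them. One cluster of 18598 nuclei, with a median of 2377 UMIs, showed 9 of 10 fixed oligodendrocyte markers such as St18 and Prr5l and is called oligodendrocyte-like. Another of 2942 nuclei showed 8 of 8 precursor markers such as Pdgfra and Cspg4 and is called precursor-like. Microglia-like nuclei held Ikbkb at 109 and 119 CPM, the UMIs of a gene scaled to a fixed library total, in the 2 knockout P301S mice and at 134 to 150 in the 3 P301S mice (log2 difference -0.29 ± 0.17 (SE), adjusted p = 0.617 by edgeR). The active IKKβ P301S mice had 161 and 147 CPM, 1 of them within the P301S range (0.15 ± 0.15, adjusted p = 0.936 by edgeR). For the knockout, 3′ tags need not fall in the deleted part of the gene. In a sum over nuclei, fewer nuclei with a transcript and fewer transcripts per nucleus cannot be told apart. Values per mouse in the genotype comparisons are CPM of the library total after TMM scaling, and levels set between types are CPM of the plain total.

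In the GRCm38 assembly the genes are scattered over the genome. Mag lies on chromosome 7 (30899176 to 30914873, minus strand), Mog on chromosome 17 (37010743 to 37023398, minus strand) and Mal on chromosome 2 (127633226 to 127656695, minus strand). Cldn11 (31149920 to 31164324, plus strand) and Ugt8a (125865271 to 125938619, minus strand) share chromosome 3 without being neighbours. Mobp lies on chromosome 9 (120149707 to 120181484, plus strand), Cnp on chromosome 11 (100574904 to 100591729, plus strand) and Opalin on chromosome 19 (41061710 to 41077113, minus strand). All 9 are protein-coding genes. Cnp overlaps Dnajc7 on the other strand, and Mobp overlaps the predicted gene Gm38642 on its own strand, so counts of Mobp may hold reads that could belong to either.

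The 250 bases upstream of the start are shown for 4 members that differed in how far their RNA was limited to oligodendrocyte-like nuclei, Ugt8a and Cnp with RNA in several types, and Mobp and Opalin with almost all of it in oligodendrocyte-like nuclei. The sequences are RefSeq promoter sequences on GRCm38.p6, written 5′ to 3′ in the direction of the gene, with each CG pair in capitals. Their starts need not match the gene coordinates above. The Mobp and Cnp windows run past the gene starts given there, and the Ugt8a window stops short of its gene. The windows are chr3:125938653-125938902 (minus strand) for Ugt8a, chr11:100574689-100574938 (plus strand) for Cnp, chr9:120149492-120149741 (plus strand) for Mobp and chr19:41077114-41077363 (minus strand) for Opalin.
Ugt8a: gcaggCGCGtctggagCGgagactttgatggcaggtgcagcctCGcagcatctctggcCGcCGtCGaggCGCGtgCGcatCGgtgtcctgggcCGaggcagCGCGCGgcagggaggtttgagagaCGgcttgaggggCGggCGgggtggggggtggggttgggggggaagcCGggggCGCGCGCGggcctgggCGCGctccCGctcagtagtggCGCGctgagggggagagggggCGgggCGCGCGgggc
Cnp: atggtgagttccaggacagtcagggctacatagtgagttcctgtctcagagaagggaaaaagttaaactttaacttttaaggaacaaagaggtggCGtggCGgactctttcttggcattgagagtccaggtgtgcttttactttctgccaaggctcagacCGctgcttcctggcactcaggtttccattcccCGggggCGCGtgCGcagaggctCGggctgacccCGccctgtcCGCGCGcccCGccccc
Mobp: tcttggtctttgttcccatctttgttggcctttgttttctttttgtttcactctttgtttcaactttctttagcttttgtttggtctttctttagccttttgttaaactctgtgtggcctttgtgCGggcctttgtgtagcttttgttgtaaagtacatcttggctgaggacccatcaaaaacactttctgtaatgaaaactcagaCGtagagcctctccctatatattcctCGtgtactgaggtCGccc
Opalin: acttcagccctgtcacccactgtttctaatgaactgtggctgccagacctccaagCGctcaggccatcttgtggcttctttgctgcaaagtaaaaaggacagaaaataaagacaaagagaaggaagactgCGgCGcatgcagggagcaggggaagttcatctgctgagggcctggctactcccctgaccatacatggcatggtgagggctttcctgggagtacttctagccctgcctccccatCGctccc

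The upstream windows of the members ran from CG-poor to CG-rich. The 4 windows printed above were picked by where the RNA was found, and a relation of CG pairs to that was not tested. Ugt8a held 32 CG pairs, more than 95.4% of the 32817 promoter windows of the genome table, followed by Cldn11 with 19 and Cnp with 13. Mal held 7, Mobp and Opalin 4 each, the 3 windows of Mag 2 or 3 and Mog 2, against a median of 6 over all windows. A table entry was matched for 8 of the 9 genes, and Mbp is named only. The letters ACAAAG or their reverse complement CTTTGT, the core bound by SOX factors such as Sox10, occurred 6 times in the Mobp window and once each in those of Cnp, Opalin and 2 of the 3 Mag windows, while 16.5% of all windows held at least 1 match. These are matches of letters and were not tested for binding.

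In oligodendrocyte-like nuclei Mbp was by far the most counted member, with a mean of 3673 CPM over the 11 mice and a range of 3332 to 3981. Mbp UMIs were found in 99.1% of these nuclei at full depth, and in 95.2% of the 18412 nuclei deep enough to be thinned to 1000 UMIs. Mobp followed at 1157 CPM and Cnp was lowest at 148 CPM, found in 29.0% of nuclei. Divided by the length of the gene, introns included, the order changed. Since 3′ ends were counted, the UMIs of a gene need not grow with its length, so this order is a description and not a corrected level. Mag (57.0 CPM per kb) and Mog (56.9) led, followed by Mobp (36.4), Mbp (33.2) and Cldn11 (30.6), and the mouse ranges of each of these overlapped that of the next gene in order. Opalin (17.7 CPM per kb, 13.4 to 23.2 over mice) stood below the range of Cldn11 (24.2 to 38.4), and Mal (13.7), Ugt8a (9.78) and Cnp (8.81) closed the order, each overlapping the next in range.

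The first comparison asked whether tau changed the myelin genes of oligodendrocyte-like nuclei, and no member passed the test. Counts were summed per mouse and tested by edgeR's quasi-likelihood test over all 12986 genes with enough counts, and a gene was called when its Benjamini-Hochberg adjusted p was under 0.05 and its absolute log2 fold change over 0.1. Of the 9 members 0 were called between P301S and NonTg mice, against 0.0077% of all genes tested, and 1 member, Cldn11, had an unadjusted p under 0.05, as did 626 of all genes. DESeq2 called 2 genes where edgeR called 1. The members' log2 differences ran from -0.08 to 0.34 with a median of 0.09, beside a median of 0.00 over all genes. With all 7 transgenic mice set against the 4 NonTg mice, 0 of 9 members were called (0.0077% of genes tested were called) and the differences ran from -0.19 to 0.23.

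Mbp, whose protein holds the compacted layers together, was measured at 3433, 3362, 3554 and 3932 CPM in NonTg mice, 3670.5, 3348 and 3633 in P301S mice, 3941 and 3916 in knockout P301S mice, and 3678 and 3918 in active IKKβ P301S mice. The NonTg and P301S values overlapped throughout, at a log2 difference of -0.01 ± 0.08 (SE) with a 95% interval of -0.17 to 0.15, or 0.89-fold to 1.11-fold. All 4 knockout and active IKKβ values lay above the 3 P301S values, by 0.15 ± 0.09 (adjusted p = 0.505) and 0.10 ± 0.09 (adjusted p = 0.956) on the log2 scale in edgeR, which did not pass the test.

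Mobp had the widest spread of the set. Its values were 979.8, 895, 1199.8 and 1069 CPM in NonTg mice, 1752, 956 and 1217 in P301S mice, 1065 and 1164 in knockout P301S mice, and 1381 and 1056 in active IKKβ P301S mice. P301S replicate 1 stood above all other mice, and without that mouse the P301S difference of 0.34 ± 0.16 (adjusted p = 0.937 by edgeR) was 0.07. Tested without a filter on low counts, a setting that called far more genes for P301S, Mobp had an adjusted p of 0.0239 in edgeR.

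Cldn11, the claudin of the sheath's tight junctions, was the 1 member of 9 whose P301S mice lay apart from NonTg mice. It was counted at 453, 359, 453 and 347 CPM in NonTg mice, 519, 456 and 546 in P301S mice, 378 and 397 in knockout P301S mice, and 540.3 and 405 in active IKKβ P301S mice. The P301S mice were all above the NonTg mice, at a log2 difference of 0.33 ± 0.12 (95% interval 0.08 to 0.58), and the knockout P301S mice were both below the P301S mice, at -0.39 ± 0.14 (-0.69 to -0.08). Neither passed the test over all genes (adjusted p = 0.937 and 0.313 by edgeR), and of the active IKKβ P301S mice one lay within the P301S range and one below it. The gap between P301S and NonTg mice was narrow, at 456.47 against 453.46 CPM. In a two-sided exact permutation test, complete separation gives p = 0.0571 for 3 against 4 mice and 0.2 for 2 against 3. The share of all genes with groups apart was not counted, so separations of groups are given throughout as descriptions.

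The second comparison set mice with loss of IKKβ in microglia against P301S mice for the same genes. The knockout mice were also younger (8.39 to 9.15 against 9.15 to 10.75 months). They were all of the floxed line, while P301S mice came from both, so the groups differ in more than IKKβ. With age as a covariate the differences of Cnp and Ugt8a turned direction. Of the 9 members 0 were called between knockout P301S and P301S mice, against 0% of all genes tested, since edgeR and DESeq2 both called 0 genes here (1641 genes had an unadjusted p under 0.05 in edgeR and 1089 in DESeq2). Without the filter on low counts edgeR called 319 genes, and fitted on only the groups compared it called 5. Of the members 7 were lower and 2 higher, with a median log2 difference of -0.18 beside 0.00 over all genes, and 3 had an unadjusted p under 0.05, Cldn11, Mog and Opalin. Mog, the protein of the outermost layer, was at 648, 781 and 784 CPM in P301S mice and at 644 and 616 in knockout P301S mice. Its NonTg values were 704, 713, 714 and 767 and its active IKKβ P301S values 819 and 728, so the 2 knockout mice were the lowest of the 11, with a difference of -0.23 ± 0.10 (adjusted p = 0.369 by edgeR). Opalin, a transmembrane protein of mature cells, was at 209, 343 and 353 CPM in P301S mice and at 228 and 228 in knockout P301S mice, a difference of -0.41 ± 0.17 (95% interval -0.77 to -0.05). The groups overlapped, since P301S replicate 1 was lower than either knockout mouse, and without a filter on low counts the difference had an adjusted p of 0.0497 in edgeR. The NonTg values of Opalin were 269.96, 288, 271 and 248 and the active IKKβ P301S values 303 and 256. Markers of 4 other types lay apart in the oligodendrocyte-like sums of knockout P301S and P301S mice, with summed levels of 403 to 475 against 355 to 386 CPM for 8 astrocyte markers, 496 to 552 against 344 to 449 for 8 excitatory neuron markers, 354 to 380 against 283 to 295 for 8 precursor markers and 9.14 to 11.2 against 5.60 to 6.72 for the mural markers. The other lists overlapped, with inhibitory neuron markers at 278 to 311 against 228 to 334 and microglia markers at 52.1 to 67.3 against 43.9 to 52.9. The 10 oligodendrocyte markers other than the members summed to 14044 to 14365 CPM in knockout P301S and 14738 to 16579 in P301S mice, and the part of these differences in the members' values was not tested.

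The third comparison set active IKKβ in microglia against P301S alone. Of the 9 members 0 were called, against 0.0154% of all genes tested, and their log2 differences ran from -0.20 (Ugt8a) to 0.10 (Mbp). Ugt8a, which commits ceramide to the main glycolipid of myelin, was at 874, 800.1, 801 and 621 CPM in NonTg mice, 576, 801 and 817 in P301S mice, 765 and 559 in knockout P301S mice, and 675 and 599 in active IKKβ P301S mice. The lowest mouse of each genotype lay between 559 and 621, and the P301S range overlapped that of every other genotype. Mag, which faces the axon, was at 925, 886, 808 and 882 CPM in NonTg mice, 790.2, 894 and 989.8 in P301S mice, 942 and 978 in knockout P301S mice, and 900.2 and 836 in active IKKβ P301S mice, with every difference between -0.04 and 0.11 log2. Mal was at 276 to 341 CPM in NonTg mice, 329 to 371 in P301S mice, 262 and 356 in knockout P301S mice, and 380.3 and 298 in active IKKβ P301S mice. Cnp ranged from 123 to 174 CPM over the 11 mice, and its largest difference was 0.09 ± 0.12 between P301S and NonTg mice.

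**Figure D1:**
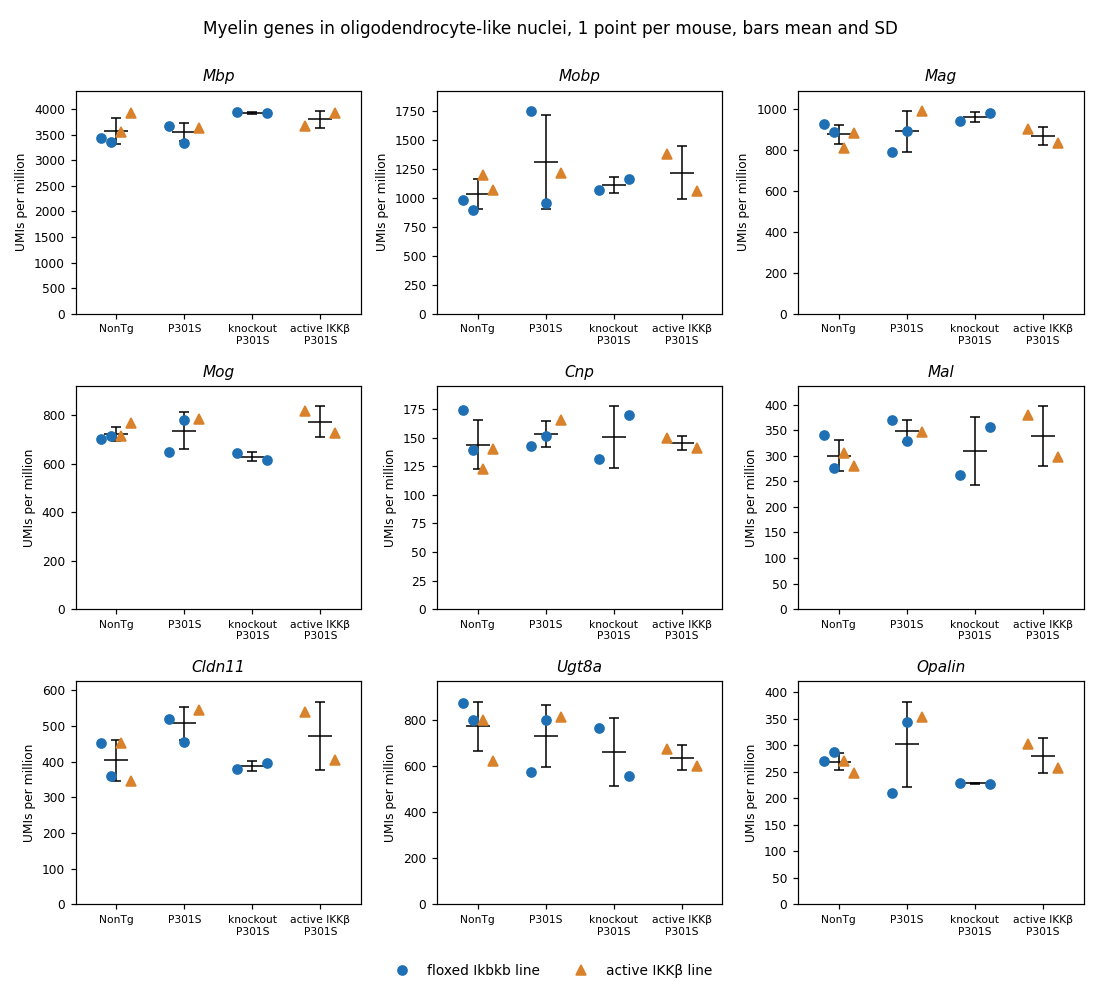
CPM of the 9 genes in oligodendrocyte-like nuclei (y axis, from 0) in each of the 11 mice by genotype (x axis); circles are the floxed Ikbkb line, triangles the active IKKβ line, and bars the mean and SD. Cldn11 of the 3 P301S mice (456 to 546) sits above the 4 NonTg mice (347 to 453), Mobp of P301S replicate 1 (1752) stands alone, and the other members overlap between NonTg and P301S mice.

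In counts simulated from the same mice for the active IKKβ comparison, 75% of genes changed 2-fold and 39% of genes changed 1.5-fold were called, with 8 of 122 calls false. In precursor-like nuclei the same simulation called 55% and 16%, with 2 of 73 calls false. Each simulation changed 200 genes and took the spread of each gene from a trend over all genes. The measured comparison called 2 of 12986 genes in oligodendrocyte-like nuclei. With fewer changed genes the adjusted p is harder to pass, so these shares need not hold for a single member. In oligodendrocyte-like nuclei the member intervals over the knockout and active IKKβ comparisons reached from -0.77 to 0.34 log2, and in precursor-like nuclei from -3.28 to 2.69. In NonTg mice the astrocyte markers named above summed to 355 to 488 CPM and the excitatory neuron markers to 404 to 506, and in active IKKβ P301S mice to 384 to 430 and 424 to 492.

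None of the genes of related lists was called in oligodendrocyte-like nuclei. Of 20 further myelin genes, such as Aspa, 19 were tested and 0 were called higher and 0 lower in each of the 4 comparisons, with median log2 differences of 0.02 for P301S, 0.03 for the knockout and -0.06 for active IKKβ. Of 12 transcription factors of the lineage 12 were tested and 0 called, with medians of 0.12, -0.13 and -0.08. The lowest adjusted p in edgeR was 0.456, for Sox10 in the knockout (0.37 ± 0.20). Sox10 was the only 1 of the 12 factors above 0 in the knockout, and all the others were lower. Sox8, of the same family, was at -0.49 ± 0.11 with active IKKβ (adjusted p = 0.595 by edgeR). Of 15 cholesterol synthesis genes 14 were tested and 0 called, and of 10 genes of newly formed oligodendrocytes 7 were tested and 0 called. A list of 14 genes known from oligodendrocytes in disease, such as Serpina3n and C4b, had 11 tested and 0 called, with a median of 0.54 for P301S and -0.15 for the knockout. In that list 7 of 11 had an unadjusted p under 0.05 between P301S and NonTg mice, against 4.82% of all genes, among them Cdkn1a (2.96 ± 0.72), Serpina3n (1.69 ± 0.66) and Klk6 (0.86 ± 0.33), each with an adjusted p of 0.937 in edgeR. Sox8, Sox10 and these 3 genes are named because of their values.

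The genes whose level followed the members most closely over the 11 mice were sought among 3541 genes with a mean of at least 50 CPM. Against the mean standardised log2 level of the 9 members, the highest Pearson correlations were those of Cd9 (0.94), Bmp2k (0.88), Pphln1 (0.88), Eif4h (0.83) and Chd8 (0.81). Cd9 codes for a tetraspanin that is also present in myelin. These are descriptions over 11 mice that share libraries and depth.

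The single gene called between P301S and NonTg mice in oligodendrocyte-like nuclei was Ndst4, the neighbour of the member Ugt8a, and it is named here because of its values, as are Alpk1 and Tifa. Ndst4 codes for an enzyme that modifies heparan sulfate, lies at 125404076 to 125728899 on the plus strand of the same chromosome 136 kb away, and has 0 annotated genes between it and Ugt8a. Ndst4 was at 41.1, 22.9, 15.7 and 47.0 CPM in NonTg mice and at 356, 323 and 318 in P301S mice (log2 difference 3.35 ± 0.22, adjusted p = 1.46e-06 by edgeR). Knockout P301S mice had 281 and 247 CPM and active IKKβ P301S mice 306 and 268, so all 7 transgenic mice were above all NonTg mice. Ugt8a itself was at -0.08 ± 0.14 in the same nuclei. In precursor-like nuclei, where 0.00977% of 10231 genes were called between P301S and NonTg mice, Ndst4 was at 7.43 to 17.9 CPM in NonTg and 13.1 to 20.1 in P301S mice and was not called. Alpk1 in excitatory neuron-like nuclei and Tifa in microglia-like nuclei, called with log2 differences of 1.09 ± 0.13 (adjusted p = 0.00798 by edgeR) and 1.72 ± 0.25 (adjusted p = 0.00663 by edgeR), lie 1732 and 1851 kb from Ugt8a on the other side. The part of genome position in these calls was not tested.

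Oligodendrocyte-like nuclei made up 15.7%, 17.4%, 13.1% and 18.0% of nuclei in NonTg mice, 16.4%, 23.5% and 19.3% in P301S mice, 17.8% and 15.7% in knockout P301S mice, and 19.2% and 19.8% in active IKKβ P301S mice. P301S mice averaged 19.7% ± 3.55 (SD, n = 3) and NonTg mice 16.1% ± 2.20 (SD, n = 4), and the groups overlapped. The difference of 3.66 percentage points had p = 0.171 in a two-sided exact permutation test, in which 0.0571 is the smallest p the design allows. Knockout P301S mice were 2.93 points below P301S mice (p = 0.4, exact permutation test, smallest possible 0.2) and active IKKβ P301S mice differed by -0.22 points (p = 1, exact permutation test). All 7 transgenic mice against NonTg gave 2.76 points and p = 0.0909 (exact permutation test, 0.343 after Benjamini-Hochberg adjustment over the 4 comparisons). The lowest of the 11 shares was NonTg replicate 3 and the highest P301S replicate 2.

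Oligodendrocyte-like nuclei were not uniform in the members. Clustering of the lineage without the 9 genes gave 7 sub-clusters, of which the largest (13388 nuclei, led by genes such as Il33 and Ptgds) is used as the reference, and levels between sub-clusters are given as descriptions without a test. In sub-cluster 3 (2478 nuclei, led by Klk6 and Slc5a11), Opalin was at a median of 0.137 of the same mouse's level in the largest sub-cluster and at most 0.266, lower in 11 of 11 mice. Mal, at a median ratio of 0.502, was lower in 11 of 11 mice as well, while Mbp (1.16), Mobp (1.17), Mog (1.19) and Ugt8a (1.27) were higher in 11 of 11 mice. Sub-cluster 3 thus had low Opalin beside high Mbp.

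Sub-cluster 5 (209 nuclei, led by Prom1 and Synpr) held the highest level of Mbp among the sub-clusters. Mbp stood at a mean of 7282 ± 580 CPM (SD, 10 mice with at least 10 nuclei), a median of 2.10 times the largest sub-cluster, and Mobp at a median of 2.39 times. Opalin (1.93) and Cldn11 (1.87) were raised likewise, each in 10 of 10 mice, but Ugt8a stayed at 1.04 with 4 of 10 mice below the reference. These nuclei also had a median of 4213 UMIs against 2270 in the reference, and the part of depth in the ratios was not tested.

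Sub-cluster 6 (199 nuclei) was led by Cdkn1a, Sesn2, Eda2r, Aen and Bbc3, which are known targets of the p53 stress factor. Mbp there was at a median ratio of 0.507, Mobp at 0.509, Mog at 0.480 and Ugt8a at 0.505, each lower in 5 of 5 mice with at least 10 such nuclei. Cnp went the other way, at 1.59 and higher in 5 of 5 mice. These nuclei numbered 2 in the 4 NonTg mice, 99 in the 3 P301S mice, 16 in the 2 knockout P301S mice and 82 in the 2 active IKKβ P301S mice. As a share of lineage nuclei this is 0% to 0.0749% per NonTg mouse and 0.308% to 3.11% per P301S mouse. Knockout P301S mice had 0.740% and 0.0791%, the first within the P301S range and the second below it. Active IKKβ P301S mice had 0.936% and 2.69%, both within that range. P301S replicate 3 gave 34.7% of them, and since the genes that define a sub-cluster may differ between genotypes these sizes are not compared by a test. Sub-cluster 4 (2182 nuclei) was led by mitochondrial genes and sub-cluster 7 (142 nuclei) by neuronal genes with a median of 1178 UMIs.

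**Figure D2:**
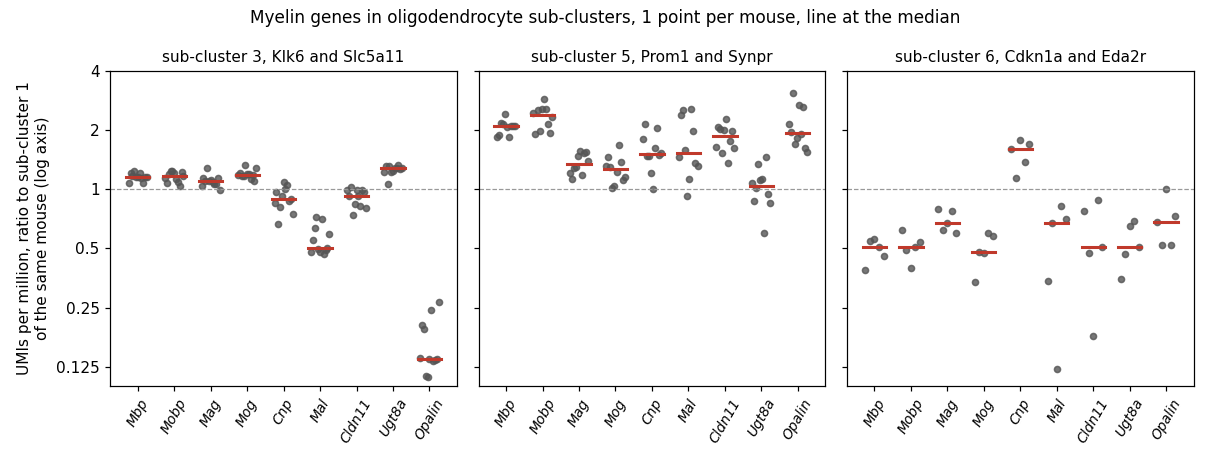
Ratio of each gene's CPM in a sub-cluster to that in the largest oligodendrocyte sub-cluster of the same mouse (y axis, log scale) for the 9 genes (x axis) in sub-clusters 3, 5 and 6; each point is a mouse with at least 10 nuclei and the line is the median. Opalin falls to 0.137 in sub-cluster 3 while Mbp stays at 1.16, and in sub-cluster 6 Cnp alone (1.59) has a median above 1.

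Precursor-like nuclei carried little RNA of the members with 1 clear exception. Ugt8a was at a mean of 114 CPM ± 12.1 (SD, 11 mice), 15.9% of its level in oligodendrocyte-like nuclei, and was found in 36.9% of precursor-like nuclei, or 10.3% when each was thinned to 1000 UMIs. In excitatory neuron-like nuclei, which are outside the lineage, its thinned share was 0.624%, with a median depth of 10656 UMIs against 4502 in precursor-like nuclei. Cnp was at 6.98% of its oligodendrocyte-like level over all precursor-like nuclei pooled, and the other 7 members at 0.919% (Mobp) to 1.82% (Mbp). Per mouse, Ugt8a was at 126, 128, 110.4 and 103 CPM in NonTg mice, 112, 116 and 108 in P301S mice, 135 and 110.2 in knockout P301S mice, and 88.8 and 119.9 in active IKKβ P301S mice. The genotypes overlapped and every difference lay between -0.09 and 0.14 log2 in the 3 comparisons.

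Knockout P301S replicate 2 stood apart in precursor-like nuclei for several members. Of the 9 members 7 had enough counts to be tested there and 0 were called between knockout P301S and P301S mice (0% of 10231 genes were called) or between active IKKβ P301S and P301S mice (0% again). All 7 were higher in the knockout, with a median log2 difference of 0.96 beside -0.01 over all genes, and 4 had an unadjusted p under 0.05, Mbp, Mobp, Mog and Cldn11, as did 775 of all genes (7.575%). Mbp was at 47.0, 45.8, 54.2 and 89.5 CPM in NonTg mice, 59.5, 69.8 and 49.0 in P301S mice, 79.3 and 158 in knockout P301S mice, and 40.2 and 68.7 in active IKKβ P301S mice. Both knockout mice were above the P301S mice, at 0.96 ± 0.26 log2 (adjusted p = 0.281 by edgeR). Mobp had 41.4 CPM in knockout replicate 2 and 4.14 to 13.0 in the other 10 mice, and Mog had 31.3 against 4.10 to 10.6.

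In that mouse 10 of 173 precursor-like nuclei held 5 or more Mbp UMIs, and the 5 nuclei with most held 34.6% of the 156 Mbp UMIs. Its precursor-like nuclei were also the deepest, with a median of 5762 UMIs against 3527 to 5104.5 in the other mice, and the part of depth was not tested. In NonTg replicate 4 the top 5 of 177 nuclei held 46.25% of 80 UMIs, and 0 to 2 nuclei of each other mouse held 5 or more. The 10 oligodendrocyte markers that named the other cluster summed to 912 CPM in precursor-like nuclei of knockout replicate 2 and to 411 to 567 in the other mice. Markers of committed precursors and newly formed oligodendrocytes summed to 2365 to 2678 CPM in both knockout mice, above P301S (1792 to 2099) and NonTg mice (1772 to 2246) and overlapping active IKKβ P301S mice (2200.3 to 2370.3), and microglia markers to 39.4 to 43.6 against 33.1 to 36.0 in P301S mice. The part of these markers in the members' levels was not tested. With predicted doublets kept, Mbp was at 163 CPM in that mouse and at 106 to 252 in the others, and the knockout difference turned to -0.08 log2, while Cldn11 turned to -0.21, Mag to -0.19 and Ugt8a to -0.14. Without knockout replicate 2 the differences of Mbp, Mobp and Mog were 0.42, 0.28 and 0.63. With knockout replicate 2 as the only knockout mouse they were 1.40, 2.53 and 2.18. That mouse is named for its values and is 1 sample, so no test of it is given.

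**Figure D3:**
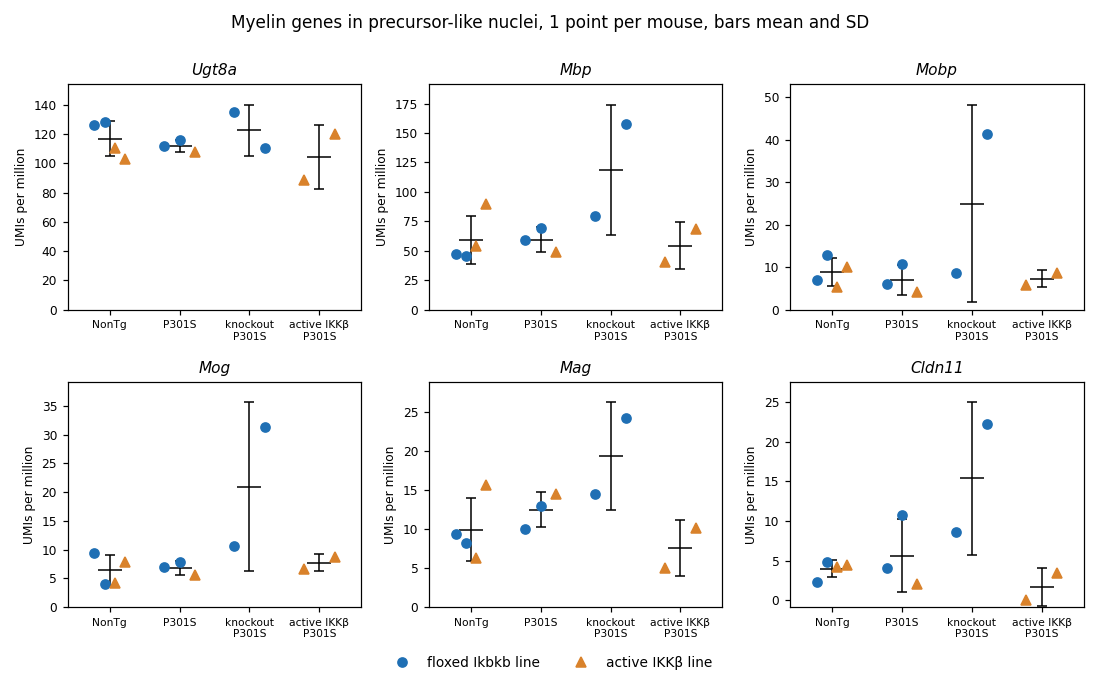
CPM of 6 of the genes in precursor-like nuclei (y axis) in each of the 11 mice by genotype (x axis); circles are the floxed Ikbkb line, triangles the active IKKβ line, and bars the mean and SD. Ugt8a lies between 88.8 and 135 in all mice, whereas Mbp (158), Mobp (41.4), Mog (31.3), Mag (24.3) and Cldn11 (22.2) are highest in knockout P301S replicate 2.

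Outside the lineage, most members were present at a small and shared fraction of their oligodendrocyte-like level. In excitatory neuron-like nuclei, Mobp, Mag, Mog, Mal, Cldn11 and Opalin were each at 0.401% to 0.474% of that level over all mice pooled. Ugt8a was at 0.961%, Mbp at 2.16% and Cnp at 2.79%, above the other 6. The exact Poisson 95% intervals were 78.8 to 81.0 CPM for Mbp, 3.90 to 4.41 for Cnp and 6.57 to 7.23 for Ugt8a, with UMIs of all mice pooled, and the part of free RNA in these fractions was not tested. In inhibitory neuron-like nuclei Cnp, Mbp and Ugt8a again led, at 3.54%, 1.77% and 1.09%, above the other 6 at 0.489% (Mobp) to 0.681% (Cldn11). Mbp is known to give rise also to longer Golli transcripts that neurons make, and counts per gene do not separate them.

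Astrocyte-like nuclei differed from neurons in Mbp. There Mbp, at 0.703% of its oligodendrocyte-like level, was the lowest member, while Cnp stood at 7.68%. Microglia-like nuclei held Cnp at 6.47% and Mag at 3.82%, and the other members at 1.66% (Mobp) to 2.96% (Mbp). Fibroblast-like nuclei held Cldn11 at 57.1 CPM (exact Poisson 95% interval 48.5 to 66.9), 12.9% of its oligodendrocyte-like level, against 2.48% to 4.71% for the other members. Endothelial-like nuclei held Mal at 133 CPM (110 to 160), 41.5% of its level in oligodendrocyte-like nuclei and found in 28.6% of 287 nuclei, against 3.28% to 9.98% for the others. Mural-like nuclei held the members at 4.76% (Mbp) to 8.73% (Ugt8a). Per mouse, Mal ranged from 34.2 to 290 CPM in endothelial-like nuclei over 9 mice and Cldn11 from 0 to 100.2 in fibroblast-like nuclei over 11. These intervals cover counting error only.

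**Figure D4:**
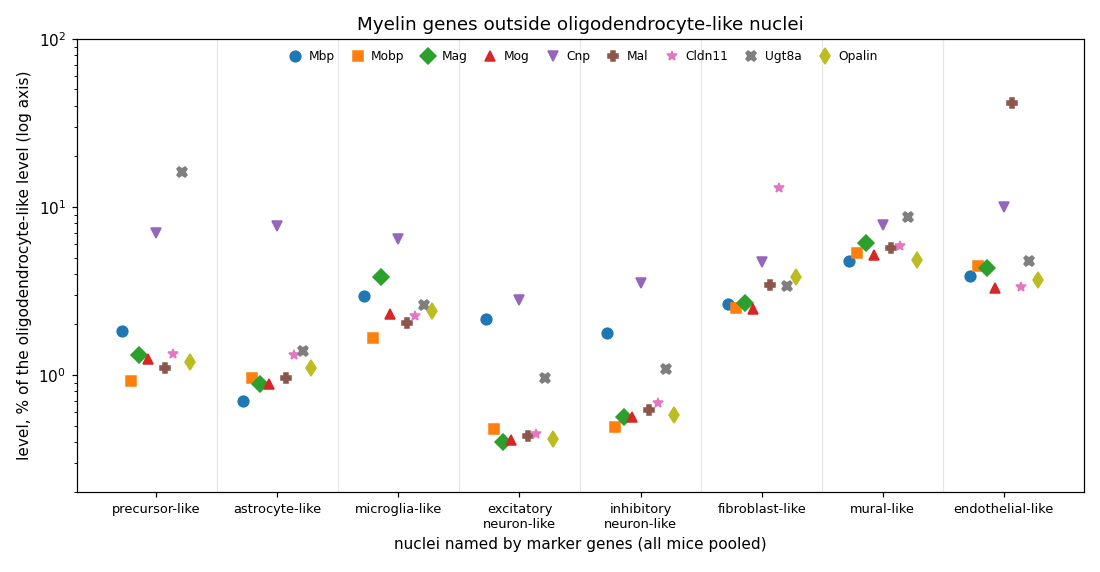
Level of each of the 9 genes in 8 other types of nuclei (x axis, all mice pooled) as a percentage of its level in oligodendrocyte-like nuclei (y axis, log scale). Ugt8a in precursor-like (16.1%), Cldn11 in fibroblast-like (12.9%) and Mal in endothelial-like nuclei (41.5%) stand out, and in neurons Mbp and Cnp lie above the other members.

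Mbp in excitatory neuron-like nuclei was split by breeding line in the NonTg mice. It was at 47.6 and 38.0 CPM in the NonTg mice of the floxed Ikbkb line and at 112 and 131 in those of the active IKKβ line. P301S mice had 72.6 and 43.7 in the first line and 74.0 in the second, knockout P301S mice 91.3 and 81.9, and active IKKβ P301S mice 109 and 84.3, so over all genotypes the lines overlapped. With genotype in the fit, the floxed line was lower by a log2 difference of -1.06 ± 0.24 (adjusted p = 0.0417 by edgeR), and Mbp was the 1 member among the 422 genes called for line (2.55% of 16571 genes tested). This line comparison was chosen with earlier results of these data known. Mice of the floxed line were 8.39 to 10.03 months old and those of the other line 9.8 to 10.85, and the part of age in the line term was not tested. The other 8 members summed to between 17.6 and 35.5 CPM of the plain total in every mouse and none of them was called for line.

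With all genotypes together, the line ranges of Mbp were apart in 1 cluster and overlapped in every other cluster with values for all 11 mice. In cluster 2, the largest of the clusters left unnamed, which raised 2 of 8 excitatory neuron markers, Mbp was at 55.9 to 105 CPM in the 6 mice of the floxed line and at 111 to 135 in the 5 of the other, without overlap. In cluster 3, the largest excitatory neuron-like cluster, the ranges overlapped at 43.8 to 115 and 97.1 to 160, and in cluster 4, the largest inhibitory neuron-like cluster, at 47.0 to 74.9 and 38.9 to 78.9. In the astrocyte-like cluster the ranges were 18.9 to 34.9 and 17.7 to 35.4, and in the oligodendrocyte-like cluster 3332 to 3967 and 3485 to 3981. Among NonTg mice alone, the floxed line was lower in cluster 3 (54.3 and 43.8 against 134 and 160 CPM). It was lower also in clusters 6 (34.2 and 25.2 against 80.0 and 80.1) and 13 (75.2 and 101 against 227 and 223). The same held in the microglia-like cluster (86.3 and 76.6 against 116 and 120) and the precursor-like cluster (46.6 and 44.7 against 53.6 and 91.6). In the oligodendrocyte-like cluster the floxed line was lower by little (3424 and 3332 against 3485 and 3954). By contrast, the floxed line was higher in cluster 14, left unnamed (26.8 and 48.4 against 18.1 and 21.6). It was higher also in the fibroblast-like cluster (93.3 and 52.3 against 48.2 and 13.4). In these last clusters each NonTg mouse held 1 to 45 Mbp UMIs. The NonTg lines overlapped in cluster 4 (48.7 and 47.7 against 38.9 and 67.7) and in the astrocyte-like cluster (18.9 and 21.0 against 19.3 and 35.4). Whether the P301S difference of Mbp in excitatory neuron-like nuclei differed between lines was tested by an interaction term, which gave -1.17 ± 0.34 log2 with an unadjusted p of 0.00536 and an adjusted p of 0.552 in edgeR, so a difference was not shown. The term was chosen after the NonTg split was seen and rests on 1 P301S mouse in the active IKKβ line.

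**Figure D5:**
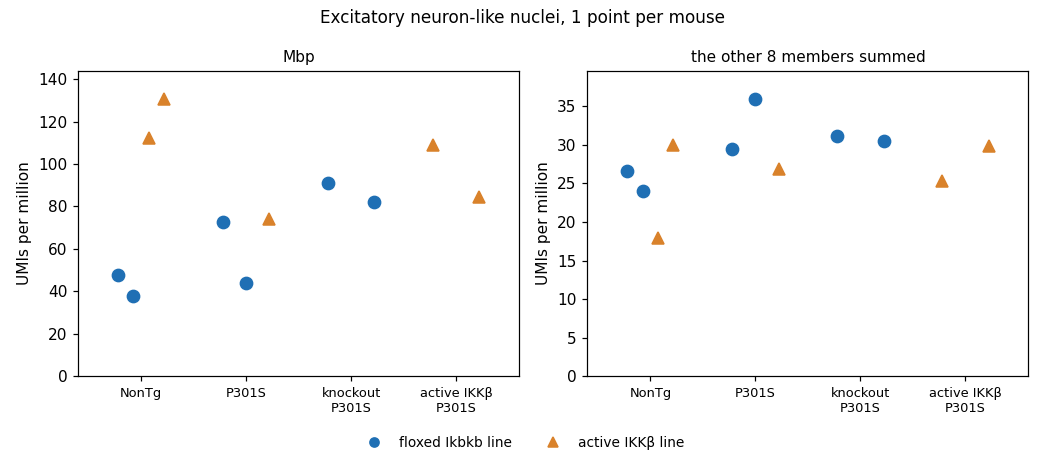
CPM of Mbp (left) and of the other 8 genes summed (right) in excitatory neuron-like nuclei (y axes, from 0) in each of the 11 mice by genotype (x axis); circles are the floxed Ikbkb line and triangles the active IKKβ line. Mbp in NonTg mice is 38.0 and 47.6 in one line and 112 and 131 in the other, a split that the sum of the other genes does not show.

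No member was called between genotypes in these neurons. Of the 9 members 0 were called for P301S (0.0302% of 16571 genes tested), for the knockout (0%) or for active IKKβ (0.00603%). Ugt8a came closest to a difference with tau, at 6.09, 5.85, 3.64 and 5.67 CPM in NonTg mice and 8.24, 9.81 and 7.82 in P301S mice. All 7 transgenic mice, at 6.61 to 9.81, were above all NonTg mice, and the P301S difference was 0.70 ± 0.17 log2 (unadjusted p = 0.00147, adjusted p = 0.99986 by edgeR). Cnp was at 4.40, 5.42 and 5.31 CPM in P301S mice and 2.96 and 3.39 in knockout P301S mice, a difference of -0.66 ± 0.18 (adjusted p = 0.556 by edgeR). Mbp was at -0.37 ± 0.37 for P301S and 0.45 ± 0.43 for the knockout, and neither passed the test. Leaving out 1 mouse at a time, these ran from -0.60 (without NonTg replicate 2) to -0.048 (without NonTg replicate 4) and from 0.24 (without P301S replicate 2) to 0.58 (without P301S replicate 3). Adjusted for breeding line they were -0.0025 and 0.78 (adjusted p = 0.228 by edgeR).

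In microglia-like nuclei, which can take up myelin, 5 of the 9 members had enough counts to be tested and 0 of them were called for P301S (0.112% of 8908 genes), the knockout (0%) or active IKKβ (1.54%). Mbp was at 88.3, 77.6, 116 and 121 CPM in NonTg mice, 97.1, 109 and 86.9 in P301S mice, 134 and 107 in knockout P301S mice, and 93.8 and 138 in active IKKβ P301S mice. The groups overlapped, and the knockout difference was 0.35 ± 0.22 log2, or 0.14 without knockout replicate 1, 0.48 without knockout replicate 2 and 0.046 with age as a covariate. Mog was at 10.5, 19.8 and 14.1 CPM in P301S mice and at 25.1 and 24.2 in knockout P301S mice, which did not overlap, at 0.72 ± 0.36 log2 (adjusted p = 0.567 by edgeR). In the same sums the 10 oligodendrocyte markers were at 509 to 584 CPM in knockout P301S and 437 to 481 in P301S mice, and the excitatory neuron markers at 635 to 683 and 439 to 593. Astrocyte markers were at 605 to 609 and 460 to 585, and precursor markers at 361 to 479 and 283 to 351. The inhibitory neuron markers were also higher in both knockout mice than in the 3 P301S mice, and the part of these markers in the Mog values was not tested. Mag, the member with the largest fraction there after Cnp, was at 20.2 to 40.7 CPM in NonTg mice and at 24.2 to 42.1 in the other genotypes, with a difference of 0.15 ± 0.26 for active IKKβ.

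Whether the members in neurons followed the amount of oligodendrocytes in a sample was examined over the 11 mice. The 9 members summed to 59.4 to 159.9 CPM of the plain total in excitatory neuron-like nuclei, and no relation of this sum, which is mostly Mbp, to the share of oligodendrocyte-like nuclei was shown (Pearson r = -0.13, permutation p = 0.717; Spearman rho = 0.08, permutation p = 0.818; r = 0.43 without the 2 mice with the most extreme shares). Without Mbp the other members gave r = 0.74 (permutation p = 0.0102, 0.061 after Benjamini-Hochberg adjustment over 6 relations; rho = 0.55, permutation p = 0.0891). That relation rested on 2 mice, since without them r was 0.09 over 9 mice. Within the 6 mice of the floxed line r was -0.22 with Mbp (permutation p = 0.78) and 0.67 without it (permutation p = 0.193), and no correlation was computed over the 5 mice of the other line.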

How the data were processed

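Nuclei of 11 mouse cortices were profiled with 3′ single-nucleus RNA-seq. The deposited matrices hold raw UMI counts per gene and barcode, which the authors made with Cell Ranger 3.1.0 on mm10 (Seurat 3.0 is also named in the submitters' processing notes). 0 per-sample columns were left unused. Barcodes with 300 to 8000 genes and at most 5% mitochondrial counts were kept, and predicted doublets were removed. Nuclei were clustered without the members (2000 variable genes, 15 components, 20 neighbours, resolution 0.1 and 0.2 within the lineage), and clusters were named from marker lists. Counts were summed per mouse and type and tested with edgeR 4.0.16 in R 4.3.3 (TMM, filter on low counts, quasi-likelihood, all 11 mice in the fit). DESeq2 1.42.0 was an alternative. Steps were tested on simulated data. Depth was 72007219 to 93205362 UMIs per library. Poisson intervals of a level cover counting error only, and edgeR intervals of a difference cover the spread between mice. The members, the lists and the breeding line comparison were chosen with earlier results of these data known. Named genes were all members, called genes of the lists (there were none) and the 5 genes most alike over mice. Markers, list examples and leading genes of sub-clusters are named to say what a group is, and other names were chosen for their values. The labels do not say whether mice were littermates or processed together, so p-values measure the spread between these mice.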

Additional observations from a re-analysis of the deposited data

Results flagged for a closer look

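Among 31 sets of 4 NonTg values tested, 4, each of a member, held a mouse far from the other 3, where chance gives about 1 in 20. In oligodendrocyte-like nuclei Mog of NonTg replicate 4 was at 767.03 CPM, above the others at 704 to 714. In excitatory neuron-like nuclei NonTg replicate 3 was low for Mag (1.9573 CPM) and for Ugt8a (3.6406 CPM), against 3.38 to 3.64 and 5.67 to 6.09 CPM in the other NonTg mice. In the same nuclei Opalin of NonTg replicate 4 was high at 1.4324 CPM, where the others had 1.02 to 1.08. NonTg replicate 3 also had the lowest share of oligodendrocyte-like nuclei (13.1%) and NonTg replicate 4 the highest of its group (18.0%).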

How the results depend on the processing

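No filter on low counts gave 108 calls for P301S, 319 for the knockout, 133 for active IKKβ and 57 for all tau in oligodendrocyte-like nuclei, and 20, 56 and 15 for the first 3 in precursor-like nuclei. DESeq2 called 2 genes for P301S and 2 for all tau. Fitting only the groups compared gave 5 calls for the knockout in oligodendrocyte-like nuclei, and 0 for P301S and 7 for the knockout in precursor-like nuclei. There, age as a covariate gave 2 and breeding line 2 calls for P301S, and line 15 for the knockout. A pairing of mice by replicate number was not shown (correlations of deviations -0.11 to 0.15 over 22 same-number pairs). The 22 different-number pairs nearly mirrored these (-0.15 to 0.11), so the check decides little. In the active IKKβ line, mice numbered 1 in their titles were 10.75 to 10.85 months old and those numbered 2 were 9.8. A replicate block gave 3 calls for the knockout in precursor-like nuclei. Leaving out each mouse gave 1 to 2 calls for P301S, 0 to 3 for the knockout, 2 to 3 for active IKKβ and 1 to 2 for all tau in oligodendrocyte-like nuclei, and 0 to 2, 0 to 14 and 0 to 3 in precursor-like nuclei, with 14 without knockout P301S replicate 1. Leaving out a knockout or active IKKβ mouse leaves 1 mouse in that group, and the causes were not tested.

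The share of oligodendrocyte-like nuclei differed by 1.79 to 5.31 points for P301S, -4.59 to -1.06 for the knockout, -1.87 to 1.66 for active IKKβ and 1.78 to 3.41 for all tau when a mouse was left out, and by 0.0783 for active IKKβ with doublets kept. The relation of the members to that share was 0.40 in inhibitory neuron-like nuclei and, chosen after seeing the data, 0.74 without Mbp.

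Of the settings tried for members in oligodendrocyte-like nuclei, 491 kept direction and call, 38 turned the direction of an uncalled difference and 2 brought a call. With age as a covariate the log2 difference turned to 0.015 for Mog (all tau, oligodendrocyte-like), 0.058 for Cnp (knockout, oligodendrocyte-like), 0.068 for Ugt8a (knockout, oligodendrocyte-like), 0.12 for Opalin (all tau, oligodendrocyte-like), -0.057 for Ugt8a (knockout, precursor-like). With breeding line as a covariate the log2 difference turned to 0.011 for Mbp (P301S, oligodendrocyte-like), -0.029 for Mag (active IKKβ, microglia-like). With doublets kept the log2 difference turned to -0.079 for Mbp (knockout, precursor-like), -0.21 for Cldn11 (knockout, precursor-like), -0.19 for Mag (knockout, precursor-like), -0.14 for Ugt8a (knockout, precursor-like). Without the filter on low counts the log2 difference turned to 0.0054 for Opalin (all tau, oligodendrocyte-like). Leaving out each mouse, the P301S difference in oligodendrocyte-like nuclei ran from -0.036 to 0.040 for Mbp, -0.057 to 0.10 for Mag, -0.021 to 0.11 for Mog, -0.17 to 0.064 for Ugt8a. Leaving out each mouse, the active IKKβ difference in oligodendrocyte-like nuclei ran from -0.31 to 0.17 for Mobp, -0.12 to 0.048 for Mag, -0.020 to 0.15 for Mog, -0.22 to 0.13 for Mal, -0.33 to 0.093 for Cldn11, -0.32 to 0.016 for Opalin. Leaving out each mouse, the all tau difference in oligodendrocyte-like nuclei ran from -0.056 to 0.0056 for Mog, -0.0085 to 0.16 for Cnp, -0.045 to 0.063 for Opalin. Leaving out each mouse, the knockout difference in oligodendrocyte-like nuclei ran from -0.41 to 0.037 for Mobp, -0.22 to 0.14 for Cnp, -0.40 to 0.031 for Mal, -0.39 to 0.074 for Ugt8a. Leaving out each mouse, the knockout difference in precursor-like nuclei ran from -0.025 to 0.27 for Ugt8a.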
